A study of Mus musculus with 12 samples.

Results

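The MAP kinase feedback genes described here are Spry1, Spry2, Spry4, Spred1, Spred2, Dusp4, Dusp5, Dusp6, Phlda1 and Epha2. These 10 genes were chosen by symbol, with earlier results on the same libraries known, and which measured values weighed in that choice is not recorded. They were 10 of 22034 gene symbols in the footprint table and 10 of 49997 in the table of RNA. Because of how they were chosen, the adjusted p-values, counts and medians below are not independent evidence about these genes. The p-values are outputs of fits over all genes.

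All libraries came from the mouse embryonic stem cell line ES-E14TG2a with a dTAG degron on the translation release factor eRF1, which ends translation at stop codons. Footprints, the pieces of mRNA covered by ribosomes, were counted in Gcn2 knockout cells given 500 nM dTAG-13 for 1 h, in untreated Gcn2 knockout cells, in treated wild-type cells and in untreated wild-type cells. Poly(A) RNA was counted in treated and in untreated wild-type cells. Each of these 6 groups had 2 biological replicates, A and B, so there were 12 libraries. Treated and untreated cells of both genotypes carried the tagged eRF1. All groups were grown on gelatin with 1000 U/mL LIF, 3 uM CHIR99021, an inhibitor of GSK3, and 1 uM PD0325901, an inhibitor of MEK. Gcn2, the product of Eif2ak4, is a stress kinase whose substrate is the initiation factor eIF2. The labels name neither a vehicle control nor treated cells without the tag, so effects of the compound and of eRF1 loss cannot be told apart. How many knockout clones there were is not stated.

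In the MAP kinase cascade, receptor tyrosine kinases activate Ras, which activates Raf, then MEK, then ERK. Active ERK raises the transcription of genes whose products damp the same cascade, among them Sprouty and Spred proteins and dual-specificity phosphatases, so their RNA is commonly read as a gauge of ERK output. In mouse embryonic stem cells ERK promotes exit from naive pluripotency, and MEK inhibition is used to hold cells in that state. All cells studied here were thus grown with the cascade inhibited at MEK.

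Library totals were 7874804 to 19691716 footprint counts and 17462458 to 24256097 RNA counts, and treated wild-type library A was the shallowest. Values below are CPM, counts scaled to a common library total, so a change common to all mRNAs was not measured. In these bulk samples, fewer cells of a type and less RNA per cell cannot be told apart. Footprints of Eif2ak4 were 3.10 and 5.36 CPM in treated knockout and 2.46 and 2.33 CPM in untreated knockout cells, against 34.0 and 33.2 CPM in treated wild-type and 27.7 and 29.4 CPM in untreated wild-type cells. All 9 embryonic stem cell markers were detected in each group, with sums of 9081 to 9922 CPM in footprints and 5419 to 5489 CPM in RNA. The 6 fibroblast markers summed to 3.58 to 9.08 CPM, with Prrx1 and Twist2 at 0 in all libraries.

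In mm10 coordinates from the RefSeq annotation of GRCm38, the Sprouty genes lie at chr3:37639947-37644599 (Spry1), chr14:105891947-105896819 (Spry2) and chr18:38586247-38601347 (Spry4). The Spred genes lie at chr2:117121071-117182279 (Spred1) and chr11:19924442-20024026 (Spred2). The phosphatase genes lie at chr8:34807610-34819894 (Dusp4), chr19:53529145-53541809 (Dusp5) and chr10:99263231-99267489 (Dusp6). Phlda1 lies at chr10:111506286-111508649 and Epha2 at chr4:141301221-141329384. Dusp6 overlaps the long non-coding RNA gene Gm34921, and no source used here says whether counting used strand, so its values could include reads of that gene.

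The RNA comparison asked whether the feedback genes' mRNAs changed in wild-type cells within 1 h of treatment. RNA of Spry4, Phlda1 and Epha2 rose, by 1.71-fold, 1.57-fold and 1.26-fold. No feedback gene fell. The 3 of 10 called compare with 0.163% of the 15955 genes tested, which is 26 genes, 19 higher and 7 lower (edgeR's quasi-likelihood test, adjusted p under 0.05). The median log2 change of RNA was 0.25 over the 10 feedback genes and -0.00092 over all genes tested. For 7 of the 10 both treated libraries lay above both untreated ones, as they did for 16.6% of all genes tested, and for none did both lie below (16.9% of all genes). These 7 were Spry1, Spry2, Spry4, Dusp5, Dusp6, Phlda1 and Epha2.

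Among the Sprouty genes, whose products inhibit receptor tyrosine kinase signalling to Ras and ERK, RNA of Spry4 stood at 48.1 and 51.2 CPM in treated cells, against 26.1 and 31.9 CPM in untreated cells. Both treated libraries lay well above both untreated ones. The log2 change was 0.78 (SE 0.0801, edgeR adjusted p = 1.8e-09), and Spry4 ranked 5 of 15955 genes by p. RNA of Spry2 was 108 and 105 CPM in treated and 92.5 and 97.4 CPM in untreated cells. The groups did not overlap, but the log2 change of 0.17 (SE 0.0563) did not pass (edgeR adjusted p = 0.617). Spry1 RNA differed less, at 7.28 and 7.19 CPM in treated cells and 6.71 and 6.88 CPM in untreated cells (log2 change 0.09, SE 0.159, edgeR adjusted p = 0.993).

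The Spred genes encode membrane proteins that bring the Ras-inactivating protein neurofibromin to the plasma membrane. Their RNA had treated and untreated values that overlapped. Spred1 RNA was 47.1 and 49.3 CPM in treated cells and 47.4 and 48.8 CPM in untreated cells, and the interval of its log2 change was -0.13 to 0.13. Spred2 RNA was 72.0 and 66.9 CPM in treated cells and 66.3 and 73.2 CPM in untreated cells, with an interval of -0.13 to 0.13 as well. Intervals here are at the 95% level.

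The phosphatases of this group remove the activating phosphates from MAP kinases, Dusp5 on ERK in the nucleus, Dusp6 on ERK in the cytoplasm, and Dusp4 in the nucleus on ERK and other MAP kinases. Dusp5 RNA was low, with 87 and 46 reads in treated and 54 and 38 reads in untreated cells, or 3.64 and 2.65 CPM against 2.22 and 1.73 CPM. Its log2 change of 0.68 was close to that of Phlda1, but its SE of 0.268 was larger and it did not pass (edgeR adjusted p = 0.905). Dusp6 RNA was 9.33 and 10.1 CPM in treated cells and 7.08 and 7.11 CPM in untreated cells, a log2 change of 0.45 (SE 0.149, edgeR adjusted p = 0.617). Dusp4 RNA stood at 1.21 and 1.04 CPM in treated cells and 1.399 and 1.14 CPM in untreated cells, and its interval of -0.96 to 0.62 was the widest of the 10.

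Phlda1, which encodes a pleckstrin homology-like domain protein and is induced by ERK signalling in many cells, had 19.3 and 20.03 CPM of RNA in treated cells, against 13.7 and 11.2 CPM in untreated cells. The log2 change was 0.65 (SE 0.117, edgeR adjusted p = 0.00141). Epha2, which encodes a receptor tyrosine kinase for ephrin-A ligands, had 152 and 139 CPM in treated cells, against 113 and 118 CPM in untreated cells. This smaller log2 change of 0.34 came with the smallest SE of the 10 genes, 0.0540 (edgeR adjusted p = 0.000149). In both genes each treated library lay above each untreated library.

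**Figure D1:**
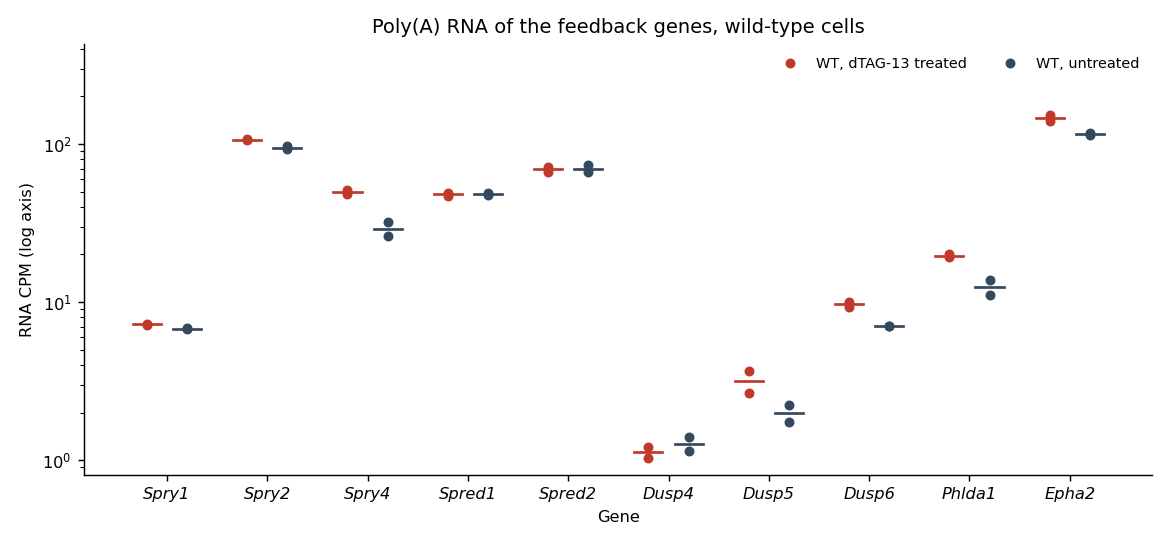
RNA level in CPM (log axis) of each feedback gene in treated (left of each pair) and untreated (right) wild-type cells, with 1 point per library and a bar at the mean of 2. On this axis the widest gap between groups is that of Spry4, with 48.1 and 51.2 CPM in treated against 26.1 and 31.9 CPM in untreated cells.

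The RNA calls rested on 2 libraries a side and 2 residual degrees of freedom. Spry4 was called in 8 of 8 alternative fits, with log2 changes of 0.63 to 0.93. Phlda1 and Epha2 were each called in 7 of 8: Phlda1 was lost in DESeq2 (adjusted p = 0.0689), and Epha2 without treated library A (log2 change 0.27, edgeR adjusted p = 0.440). Without untreated library B, Spry2 was called as well (log2 change 0.21, edgeR adjusted p = 0.0220) and 267 genes were called in all, against 14 without treated library A. The primed epiblast markers, which rise on exit from naive pluripotency, summed to 214 to 227 CPM of RNA in treated and 197 to 205 CPM in untreated cells. Most of that sum was Dnmt3b, 1 of the 5 markers, with 200 and 214 CPM in treated and 181 and 188 CPM in untreated cells. The other markers did not share this direction. Otx2 had 8.70 and 7.60 CPM in treated and 10.2 and 9.93 CPM in untreated cells, and T had 4.56 and 4.49 CPM in treated and 4.98 and 4.92 CPM in untreated cells. Pou3f1 averaged 0.774 CPM in treated and 1.12 CPM in untreated cells with values that overlapped, and Fgf5 was at 0. The part of such cells in the RNA changes was not tested.

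Windows of 7 feedback genes, taken from the RefSeq promoter table of GRCm38.p6, were searched for 5 motifs. The upstream sequences of Epha2 and Dusp5 are shown because, of these 7, only theirs held any motif in the 250 bases before the start. Bases of a motif are in capitals and the strand is the plus strand, 5′ to 3′. Epha2 RNA rose as given above, and Dusp5 RNA did not pass its test.
Epha2, chr4:141300971-141301220: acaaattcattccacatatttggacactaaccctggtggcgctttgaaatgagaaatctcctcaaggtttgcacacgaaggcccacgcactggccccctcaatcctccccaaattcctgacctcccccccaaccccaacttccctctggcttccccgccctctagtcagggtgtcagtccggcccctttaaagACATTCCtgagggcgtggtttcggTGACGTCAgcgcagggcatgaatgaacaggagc
Dusp5, chr19:53528895-53529144: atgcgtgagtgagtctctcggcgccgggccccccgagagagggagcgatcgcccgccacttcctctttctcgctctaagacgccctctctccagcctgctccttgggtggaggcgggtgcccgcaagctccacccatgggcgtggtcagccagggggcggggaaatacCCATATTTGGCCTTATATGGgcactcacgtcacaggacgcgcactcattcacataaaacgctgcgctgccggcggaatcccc

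In the Epha2 sequence the capitals mark a TEAD motif (ACATTCC) whose first base lay 57 bases before the start, and a cyclic AMP response element (TGACGTCA) at 33 bases before it. In the Dusp5 sequence they mark 2 adjoining serum response elements, the motif of serum response factor, at 82 and 72 bases before the start. Both strands were searched. Of 32851 windows of this length in the table, 3.25% held the TEAD motif, 1.55% the cyclic AMP response element and 1.47% a serum response element. The ETS motif CCGGAAGT (2.88% of windows) and the AP-1 motif TGACTCA or TGAGTCA (4.46%) were in none of the 7 windows of feedback genes. Dusp4 and Phlda1 had no window under their symbols in the table. Among feedback genes, windows on chromosome 18, where Spry4 lies, were left out by a rule whose reason is not recorded. Whether windows of Spry4, Dusp4 and Phlda1 held a motif is therefore not known here. These matches describe letters in a short window and say nothing of binding.

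Beside the feedback genes, a list of 38 other genes linked to ERK output was examined. Like the feedback genes, it was chosen with earlier results of these data known. Whether any change in it came through ERK was not tested. Its median log2 change of RNA was 0.15, against -0.00092 over all genes tested. RNA of 5 of its 32 tested genes rose and none fell, where 0.163% of all genes tested were called. They were Ccn2 and Ccn1, which encode secreted matricellular proteins (log2 change 0.84 and 0.74), the AP-1 subunit genes Jun and Junb (0.80 and 0.64) and Myc (0.34), which encodes a growth-promoting transcription factor. Ccn2 RNA was 44.7 and 50.7 CPM in treated cells, against 27.4 and 25.9 CPM in untreated cells, and Junb RNA was 37.9 and 37.5 CPM in treated cells, against 22.9 and 25.4 CPM in untreated cells. Ccn1, Ccn2 and Junb were called in 8 of 8 alternative fits, Jun in 6 and Myc in 3. The count of 5 was 3 in DESeq2 and 3 without treated library A.

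Of 31 tested genes for other negative regulators of receptor tyrosine kinase and MAP kinase signalling, 1 rose in RNA, where 0.163% of all genes were called. This was Socs3, the LIF-induced inhibitor of JAK kinases, with 172 and 174 CPM in treated cells, against 143 and 146 CPM in untreated cells (log2 change 0.26, edgeR adjusted p = 0.00435, called in 6 of 8 alternative fits). It was not called without either treated library. For the kinases, GTPases and adaptors of the cascade itself, 0 of 41 tested genes were called in edgeR (1 at an unadjusted p under 0.05, 0 in DESeq2). For the relatives of Phlda1 and Epha2, ephrins among them, it was 0 of 16 in edgeR (0 at an unadjusted p under 0.05, 0 in DESeq2). Their median log2 changes were 0.00065 for the cascade and -0.02 for the relatives.

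**Figure D2:**
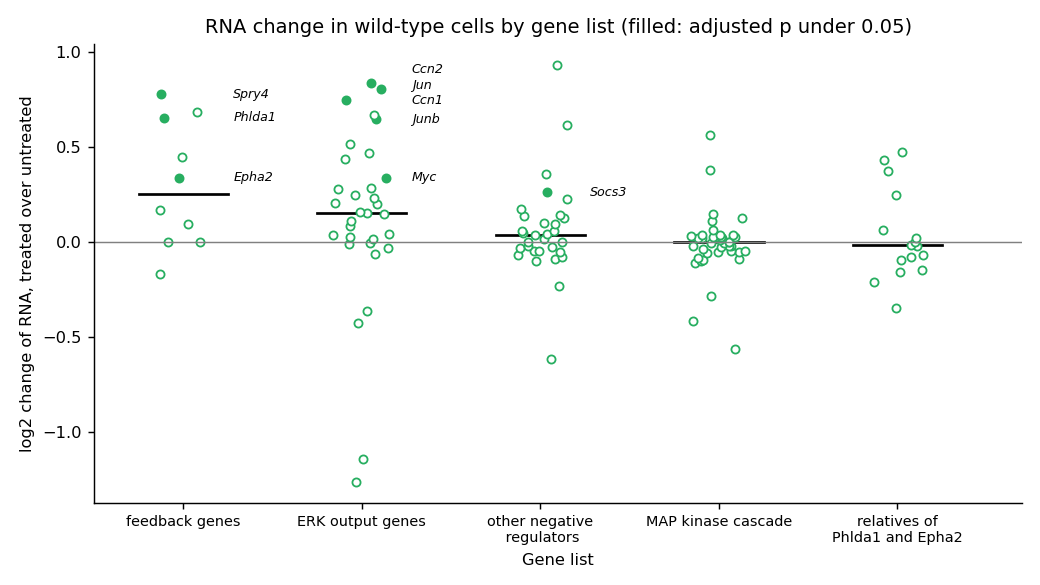
log2 change of RNA, treated over untreated wild-type cells, for the tested genes of 5 gene lists. Each point is a gene, filled where its adjusted p was under 0.05 and then named, and the horizontal line is the list's median, 0.25 for the feedback genes and 0.15 for the ERK output genes.

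Footprints of the same mRNAs were compared to ask whether ribosome occupancy moved with RNA. In wild-type cells, 0 of 10 feedback genes were called in edgeR, against 4.88% of the 12267 genes tested (599 genes, 361 higher and 238 lower). At an unadjusted p under 0.05 there was 1, Spred2, and DESeq2 called 0 of the 10. The number of genes called was 19 when wild-type footprints were fitted alone and 197 to 659 with 1 library left out. The median log2 change in footprints was -0.11 over the feedback genes, with Dusp4 (-0.86) included, and -0.0087 over all genes tested. Treated libraries lay above untreated ones without overlap for Spry2 and Dusp6, 2 of 10 against 22.3% of all genes. They lay below for Spred2 and Dusp5, against 22.8% of all genes. Dusp4 also lay below, but it is not counted, because it passed the filter on low counts only through untreated libraries.

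In Gcn2 knockout cells 1 of 10, Spry2, was called, against 8.88% of genes tested (1089 genes, 388 higher and 701 lower, and 215 to 601 genes with 1 library left out). The median log2 change was -0.11 over the feedback genes, with Dusp4 (-1.48) included, and 0.04 over all genes tested. Treated libraries lay above untreated ones without overlap for Spry2, 1 of 10 against 32.5% of all genes, and below for Spry4 and Spred2, against 27% of all genes, with Dusp4 again below but not counted. Spry2 footprints were 66.6 and 65.7 CPM in treated knockout and 45.2 and 47.5 CPM in untreated knockout cells, a 1.43-fold rise (log2 change 0.51, SE 0.130, edgeR adjusted p = 0.0268). In wild-type cells they were 52.0 and 54.3 CPM in treated and 49.2 and 40.1 CPM in untreated cells (log2 change 0.25, SE 0.131, edgeR adjusted p = 0.321). Treated libraries were above untreated ones in both genotypes. The change in knockout minus the change in wild type was 0.26 (SE 0.184, edgeR adjusted p = 0.688). The Spry2 call was lost when any 1 of the 4 knockout libraries was left out, and its log2 change stayed between 0.47 and 0.55 in the 10 alternatives.

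Spry4, whose RNA rose most, had few footprints. There were 13 and 18 reads in treated knockout, 24 and 23 in untreated knockout, 16 and 18 in treated wild-type and 28 and 22 in untreated wild-type libraries. Scaled, these were 1.12 and 1.24 CPM in treated knockout and 1.34 and 1.34 CPM in untreated knockout cells, and 2.12 and 1.29 CPM in treated wild-type and 1.399 and 1.23 CPM in untreated wild-type cells. The wild-type groups overlapped, and both treated knockout libraries lay below both untreated ones. The log2 change in wild-type footprints was 0.30 with an interval of -0.48 to 1.08, which holds both 0 and the RNA change of 0.78, so a difference from either was not detectable at this depth. In the knockout it was -0.18 (interval -0.97 to 0.61). Spry1 footprints were 1.63 and 2.95 CPM in treated knockout, 2.63 and 3.21 CPM in untreated knockout, 2.65 and 2.29 CPM in treated wild-type and 3.00 and 2.62 CPM in untreated wild-type cells. Treated and untreated values of Spry1 overlapped in both genotypes.

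Spred2 had lower footprint values after treatment in both genotypes, without passing in either. It had 5.93 and 7.63 CPM in treated knockout and 9.73 and 10.6 CPM in untreated knockout cells, and 8.10 and 7.50 CPM in treated wild-type and 11.9 and 11.4 CPM in untreated wild-type cells. The log2 changes were -0.58 (SE 0.190, edgeR adjusted p = 0.0784) in the knockout and -0.59 (SE 0.190, edgeR adjusted p = 0.0999) in wild type. Spred2 was called in 3 of 10 alternatives in the knockout and in 1 of 10 in wild type. Spred1 footprints were 3.18 and 3.23 CPM in treated knockout and 3.13 and 3.38 CPM in untreated knockout cells, and 3.32 and 4.43 CPM in treated wild-type and 4.55 and 4.35 CPM in untreated wild-type cells. The groups overlapped in both genotypes, and the log2 changes were -0.02 in the knockout and -0.17 in wild type.

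Dusp4 was at the edge of detection in footprints, with 3 and 3 reads in treated knockout, 12 and 11 in untreated knockout, 4 and 3 in treated wild-type and 13 and 10 in untreated wild-type libraries. It reached the filter's minimum of 0.630 CPM only in untreated libraries, 2 of the knockout and 1 of the wild type, so it was tested because of the groups where it was higher. Its log2 changes of -1.48 (SE 0.605) in the knockout and -0.86 (SE 0.596) in wild type did not pass (edgeR adjusted p = 0.150 in the knockout and 0.482 in wild type). Dusp5 footprints were 4.21 and 4.40 CPM in treated knockout and 4.36 and 4.60 CPM in untreated knockout cells, and 2.39 and 2.72 CPM in treated wild-type and 4.55 and 3.07 CPM in untreated wild-type cells. The wild-type groups did not overlap, but the log2 change of -0.56 (SE 0.272) did not pass (edgeR adjusted p = 0.284). Dusp6 footprints were 2.06 and 2.40 CPM in treated knockout and 2.35 and 2.68 CPM in untreated knockout cells, and 3.05 and 3.57 CPM in treated wild-type and 2.85 and 2.68 CPM in untreated wild-type cells. Its treated values were above in wild type and overlapped the untreated ones in the knockout, and neither log2 change passed (-0.16 in the knockout and 0.28 in wild type).

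Phlda1 and Epha2, whose RNA rose, had footprint changes near 0. Phlda1 had 9.89 and 8.86 CPM in treated knockout, 9.29 and 8.86 CPM in untreated knockout, 7.70 and 6.86 CPM in treated wild-type and 7.24 and 6.47 CPM in untreated wild-type cells. Epha2 had 90.1 and 110.5 CPM in treated knockout, 93.1 and 86.3 CPM in untreated knockout, 60.2 and 72.9 CPM in treated wild-type and 63.7 and 75.3 CPM in untreated wild-type cells. In both genes treated and untreated values overlapped in each genotype. The log2 change in wild-type Epha2 footprints was -0.06 with an interval of -0.37 to 0.26, and that in RNA had an interval of 0.23 to 0.44, which overlaps it. For Phlda1 the intervals were -0.34 to 0.49 in footprints and 0.42 to 0.89 in RNA. The direct test of footprints against RNA did not pass for either gene (edgeR adjusted p = 0.299 for Epha2 and 0.267 for Phlda1). The primitive endoderm markers, 7 of 7 of them detected, summed to 113 to 140 CPM of footprints in treated and 101 to 111 CPM in untreated knockout cells, and to 136 to 148 CPM in treated and 95.2 to 103 CPM in untreated wild-type cells, mostly from Lama1. Gata4, another of these markers, averaged 1.38 CPM in treated and 3.16 CPM in untreated knockout cells. In wild-type cells it averaged 2.58 CPM in treated and 3.12 CPM in untreated cells, with values that overlapped. Col4a1 averaged 4.37 CPM in treated and 2.80 CPM in untreated knockout cells, and 5.07 CPM and 3.53 CPM in wild-type cells. With few reads, Foxa2 averaged higher in treated cells of both genotypes. Gata6, Sox17 and Pdgfra, also with few reads, averaged higher in treated wild-type and lower in treated knockout cells. The part of these markers in the results was not tested.

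**Figure D3:**
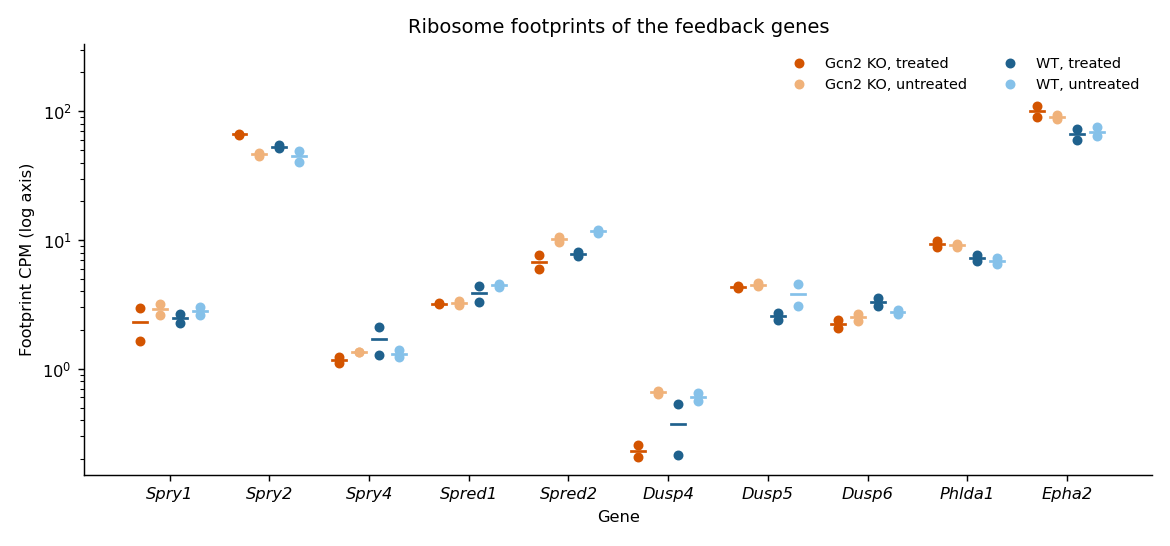
Footprint level in CPM (log axis) of each feedback gene, with 1 point per library and a bar at the mean of 2, in treated knockout, untreated knockout, treated wild-type and untreated wild-type cells from left to right. Spry2 in treated knockout cells, at 66.6 and 65.7 CPM, lies above its other groups, and Dusp4 is lowest there, at 0.258 and 0.206 CPM.

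**Figure D4:**
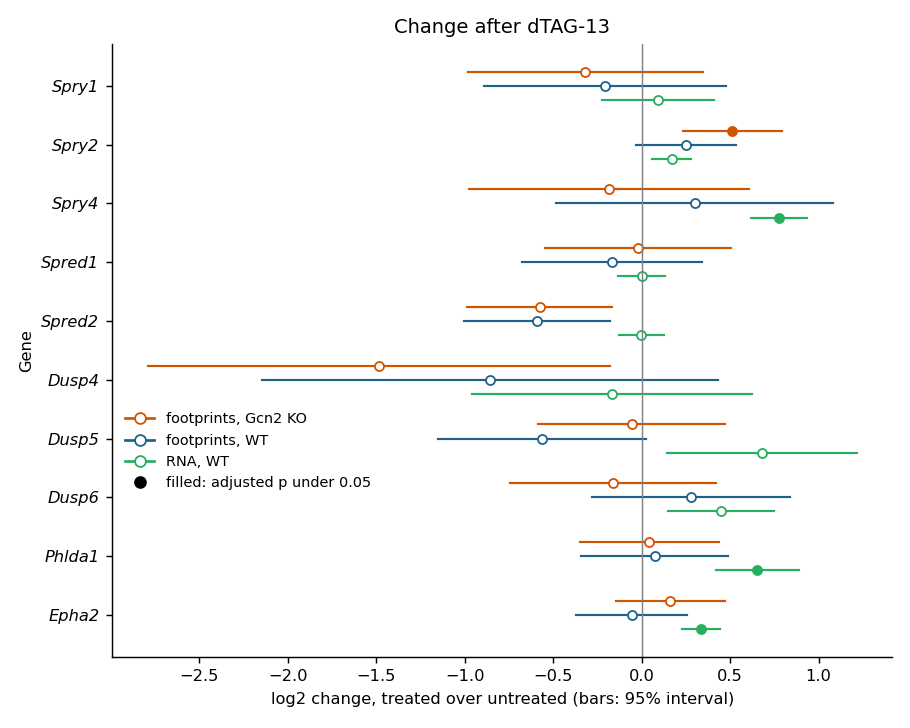
log2 change, treated over untreated, of each feedback gene in knockout footprints, wild-type footprints and wild-type RNA, with 95% intervals. Filled points passed an adjusted p of 0.05, namely Spry4, Phlda1 and Epha2 in RNA and Spry2 in knockout footprints.

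Tested directly, the treatment change in knockout minus that in wild type was called for 0 of 10 feedback genes in edgeR, against 0.0489% of genes tested (6 genes). None had an unadjusted p under 0.05, and DESeq2 called none of the 10. The differences ran from -0.62 for Dusp4, which passed the filter only through untreated libraries, to 0.51 for Dusp5. The next lowest was -0.48 for Spry4. The 4 libraries of one genotype enter each change, and the intervals were wide, for example -0.28 to 1.30 for Dusp5. In untreated cells, knockout over wild type, 0 of 10 were called in edgeR, against 0.00815% of genes tested (1 gene), and DESeq2 called none of the 10. Epha2 and Phlda1 had an unadjusted p under 0.05, with log2 differences of 0.37 (SE 0.142, edgeR adjusted p = 0.744) and 0.40 (SE 0.180, edgeR adjusted p = 0.817). Both knockout libraries lay above both wild-type libraries for these genes and below them for Spred1 and Spred2. That is 2 of 10 above, against 15.6% of all genes tested, and 2 of 10 below, against 16.1%.

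Translational efficiency, the footprint change beyond that of RNA in wild-type cells, was tested as the interaction of assay and treatment. The dispersion was shared between assays. The biological coefficient of variation was 0.0968 in this fit, against 0.116 in the footprint fit and 0.0434 in the RNA fit. Its SEs can therefore understate the spread of footprints. For Spred2 the SE was 0.163 here and 0.190 for footprints alone. In edgeR, 0 of 10 feedback genes were called, against 1.47% of the 12887 genes tested (190 genes, 101 higher and 89 lower). Without any 1 of the 4 RNA libraries no gene was called. There were 4 at an unadjusted p under 0.05, and DESeq2 called 0 of the 10. These 4 were Spred2 (log2 change -0.59, SE 0.163), Dusp5 (-1.24, SE 0.419), Phlda1 (-0.59, SE 0.230) and Epha2 (-0.39, SE 0.162), with edgeR adjusted p-values of 0.109 to 0.299. The estimate for Spry4 was -0.50 (SE 0.345, edgeR adjusted p = 0.579). Of the 10 estimates 9 were negative, the exception being Spry2 at 0.08, while 49.8% of all genes tested lay above 0. The median of the 10 was -0.45, against -0.0025 over all genes tested. The genes were chosen with earlier results on these libraries known, and each estimate subtracts the RNA change. This count and this median are therefore a description only. These estimates use the same wild-type libraries as the RNA and footprint changes above. Footprints count ribosomes on an mRNA, and whether they tracked its translation after treatment was not tested. Translational efficiency here names only footprints relative to RNA.

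The ratio of footprint CPM to RNA CPM in a gene describes how its reads divide between the assays. In wild-type cells Spry4 had a ratio of 0.0343 in treated and 0.0453 in untreated cells, at the 2.12 and 2.63 percentiles of 12887 genes whose medians were 0.739 and 0.732. Spred1 (0.0804 treated, 0.0925 untreated) and Spred2 (0.112 treated, 0.168 untreated) were also low, at percentiles of 3.69 to 8.42. Dusp5 was highest of the 10, with 0.812 in treated and 1.93 in untreated cells, at the 54.2 and 84.3 percentiles. No source used here gives the regions counted in each assay, and some genes differed greatly between the tables. Pou5f1, for example, averaged 1247 CPM in footprints and 6.09 CPM in RNA. Levels of different genes were not ranked, since no lengths were used here.

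**Figure D5:**
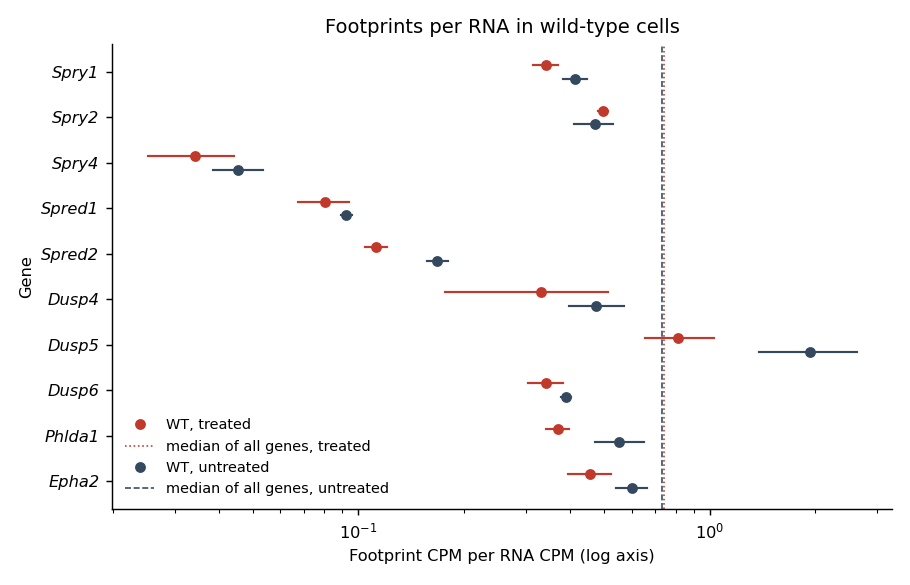
Footprint CPM per RNA CPM (log axis) of each feedback gene in treated (upper point) and untreated (lower point) wild-type cells. Horizontal lines run from the lowest footprint over the highest RNA library to the highest over the lowest, and vertical lines are medians of all genes, 0.739 treated and 0.732 untreated, with Spry4 lowest at 0.0343 and 0.0453.

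Footprints of the cascade's own components were examined beside those of its feedback genes. In wild-type cells Araf and Shoc2 fell, and no tested cascade gene rose. Araf, which encodes a kinase that phosphorylates MEK, had 15.1 and 14.0 CPM in treated cells, against 31.0 and 26.5 CPM in untreated cells (log2 change -0.99, edgeR adjusted p = 0.00527). Shoc2, a scaffold of the phosphatase that activates Raf, fell by 0.64 on the log2 scale (edgeR adjusted p = 0.0285). Their log2 changes in RNA were -0.02 for Araf and 0.04 for Shoc2. Footprints relative to RNA fell for Araf (translational efficiency -0.97, edgeR adjusted p = 0.0228), which was not called when any 1 of the 4 RNA libraries was left out. In wild-type footprints Araf was called in 9 of 10 alternatives and Shoc2 in 6. With wild-type footprints fitted alone, neither Araf nor Shoc2 was called.

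In the knockout, footprints of Shoc2 (log2 change -0.99) and the Ras exchange factor gene Sos1 (-0.82) fell, and those of Hras rose (0.93). Shoc2 was called in 10 of 10 alternatives, Sos1 in 8 and Hras in 7. The list counts that follow stand beside 8.88% of all genes called in the knockout and 4.88% in wild type, and counts this small do not set a list apart from them. Among other negative regulators 2 of 30 fell in the knockout, the phosphatase gene Dusp16 (-0.97) and Socs3 (-0.89), and 0 of 30 were called in wild type (edgeR, with 5 at an unadjusted p under 0.05 and 2 called lower in DESeq2). Without any 1 knockout library, 0 or 1 of these regulators was called lower. Of 30 ERK output genes, Ier2 (0.78) and Jund (0.54) rose and Mcl1 (-0.89) fell in the knockout, and Myc rose in wild type (1.29). Myc was called in 5 of 9 alternatives in wild type, and the 2 that rose in the knockout in 8 and 5 of 10. Efnb2, an ephrin gene, fell in the knockout (-1.23), as 1 of 16 relatives, and was called in 5 of 9 alternatives. None of the 16 was called in wild-type footprints (edgeR, 0 at an unadjusted p under 0.05, 0 in DESeq2). In the difference between genotypes and between untreated genotypes no gene of these 4 lists was called in edgeR or DESeq2, and per list 1 to 4 genes had an unadjusted p under 0.05.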

How the data were processed

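The authors deposited whole-number read counts per gene symbol, 1 table for footprints and 1 for RNA, with 1 column per library. Per the submitters' processing notes, reads were handled with CASAVA 1.4, with cutadapt and with HISAT2 2.1.0, on mm10. The counting tool, annotation, strand and counted region were not given in the sources used here. Each column was assigned by the genotype, treatment and letter of a sample's labels. For treated knockout B, whose description names the column of A, the title's letter was used. Counts were tested with edgeR 4.0.16 in R 4.3.3 (filterByExpr minimum count 10, TMM, robust quasi-likelihood F test, two-sided, Benjamini-Hochberg adjusted p under 0.05), with the 8 footprint libraries in 1 fit, the 4 RNA libraries in another, and translational efficiency as the assay by treatment interaction over the 8 wild-type libraries. The residual degrees of freedom were 4, 2 and 4. CPM are counts on TMM library sizes. SEs and 95% intervals come from the fits. Alternatives were DESeq2 1.42.0, RLE scaling, no filter, a replicate block, each genotype alone and each library left out. P-values measure the spread between replicates, and the labels do not say whether these came from separate cultures. The members and lists were chosen with earlier results of these data known. Named beside the 10 genes were called genes of the 4 lists, at most 6 per list by smallest adjusted p, the check of Eif2ak4, and 5 genes of like pattern. Replicate letters were not treated as pairs, since no label names a shared batch. One gene of the cascade list is not reported here.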

Additional observations from a re-analysis of the deposited data

How the results depend on the processing

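Each group had 2 libraries, so depth and spread limited the genes with few reads, Dusp4, Dusp5 and Spry4 most of all. In wild-type footprints (599 genes) there were 1048 without a filter on low counts, 931 with a replicate block, 19 with the genotype fitted alone, 2109 with a replicate block within genotype, and 197 to 659 with 1 library left out. In knockout footprints (1089 genes) there were 1658 without the filter, 1893 with the genotype alone, 3149 with a block within genotype, and 215 to 601 with 1 library left out. For the difference between genotypes (6 genes) there were 116 in DESeq2, 192 without the filter, 39 with the replicate block, 733 with a block within genotype, and 0 to 32 with 1 library left out. For untreated knockout against wild type (1 gene) there were 31 in DESeq2, 113 without the filter, 14 with the block, and 1 to 10 with 1 library left out. In RNA (26 genes) there were 8 in DESeq2, 16 with the block, and 14 to 267 with 1 library left out. For translational efficiency (190 genes) there were 435 in DESeq2, 459 without the filter, 1561 with the block, and 0 to 671 with 1 library left out.

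Of the 10 feedback genes, knockout footprints gave 1 call, 0 with any 1 library left out, and 2 without the filter, with the genotype alone and with a block within genotype. Wild-type footprints gave 0 calls and 1, Spred2, with a block within genotype. Translational efficiency gave 0 calls and 3 with the replicate block, Spred2, Dusp5 and Epha2. RNA gave 3 calls, and 2 to 4 with 1 library left out. Samples of the same replicate letter deviated together with a correlation of 0.565 in wild-type footprints, 0.121 in knockout footprints and 0.0196 in RNA. Each value is over 2 pairs. In wild-type footprints the letters thus shared variation, which the main fits left in the spread between replicates. No label names a shared batch, and the source of this shared variation was not tested.

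Changes of sign occurred only in feedback genes whose change was not called. With 1 library left out, wild-type footprint log2 changes ran from -0.033 to 0.69 for Spry4, -0.0050 to 0.17 for Phlda1 and -0.20 to 0.070 for Epha2. In knockout footprints they ran from -0.076 to 0.032 for Spred1, -0.068 to 0.088 for Phlda1 and -0.029 to 0.27 for Epha2. Differences between genotypes ran from -0.66 to 0.19 for Spry1, -0.016 to 0.36 for Spred1, -0.22 to 0.14 for Spred2 and -0.16 to 0.049 for Phlda1. The Spred2 difference was also -0.013 in DESeq2, -0.011 with RLE scaling and -0.014 without the filter. Untreated knockout over wild type ran from -0.096 to 0.19 for Spry1, -0.086 to 0.21 for Spry2, -0.060 to 0.13 for Spry4 and -0.020 to 0.55 for Dusp5. RNA changes ran from -0.029 to 0.034 for Spred1 and -0.071 to 0.074 for Spred2. For Spred1 RNA they were also 0.0021 in DESeq2, 0.0015 with RLE scaling and 0.0010 with the replicate block, and for Spred2 RNA 0.00015 with RLE scaling. Translational efficiency of Spry2 ran from -0.061 to 0.24. The cause of these moves was not tested. The alternatives for the 4 gene lists were added after the data were seen.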

Other observations

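The feedback genes did not share a footprint pattern. Over the 8 footprint libraries, which share scaling and depth, the 45 pairs of members had a median Pearson r of 0.0097, with 23 pairs above 0 and a range of -0.89 to 0.81. Against the mean of the members' scaled log2 CPM, Spry1 had an r of 0.89 and Spry2 of -0.34. That mean includes each member itself, which raises a member's r. The 5 genes outside the list with the most similar pattern to that mean were Miga2 (r of 0.93), Mcu (0.92), Stk11 (0.92), Fhip1b (0.91) and Timm29 (0.91), given as a description over 8 libraries. Footprints of Etf1, which encodes eRF1, were 228 and 214 CPM in treated knockout and 202 and 166 CPM in untreated knockout cells, and 211 and 214 CPM in treated wild-type and 198 and 185 CPM in untreated wild-type cells. Because dTAG-13 acts on the protein, these counts do not measure eRF1 depletion.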
